A study of Mus musculus with 4 samples.

Results

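De novo fatty acid synthesis was followed through 10 genes in adipocytes of 2 mouse fat depots. They are Slc25a1, Acly, Acss2, Acaca, Acacb, Fasn, Me1, Thrsp, Srebf1 and Mlxipl, taken by gene symbol from a table of 18781 genes, in which all 10 were found. RNA came from purified mature adipocytes of C57BL/6 mice at postnatal day 30, either dermal (the fat layer of the skin) or inguinal (the subcutaneous pad of the groin). There were 2 libraries per depot, numbered 1 and 2 in the labels, with no treatment or engineered allele named. The labels do not say whether a library came from 1 animal or a pool, and whether libraries of the same number share an animal or a batch, so the p-values rest on a spread between libraries that may be technical. Values are CPM (read counts per gene relative to the library's total, with a further scaling by the authors), given in the order replicate 1, replicate 2. A difference is dermal minus inguinal on the log2(CPM + 0.5) scale, fitted over 2 libraries per depot.

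Fatty acid synthesis turns surplus carbohydrate carbon into palmitate in the cytosol. The citrate carrier Slc25a1 exports citrate from mitochondria, Acly cleaves it to acetyl-CoA, and Acss2 makes acetyl-CoA from acetate. The acetyl-CoA carboxylases Acaca and Acacb form malonyl-CoA, and the fatty acid synthase Fasn extends it to palmitate with NADPH, supplied in part by the malic enzyme Me1. Thrsp encodes a small protein that promotes lipogenesis and responds to thyroid hormone. Srebf1 and Mlxipl encode the transcription factors SREBP1 and ChREBP, which raise transcription of these enzymes when insulin and sugar are available. SREBP1 is made as a membrane-bound precursor that must be cleaved, and both genes have alternative start sites. A gene-level count therefore measures neither the active factor nor its isoforms.

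The sequences upstream of Fasn, Acly and Slc25a1 are shown because of their inguinal to dermal ratios in replicates 1 and 2. These were 1.07 and 0.956 for Fasn, 2.52 and 1.97 for Acly and 1.68 and 1.01 for Slc25a1. The sequences of both Mlxipl starts are shown because they held the E-box and sterol element matches of a regulator. Each covers 250 bases before a RefSeq start on GRCm38.p6, written 5′ to 3′ on the gene's strand. Capitals mark matches on either strand to the sterol element TCACNCCAC, the E-box CACGTG, the NF-Y box CCAAT and the GC box GGGCGG. The windows are chr11:120824548-120824797 (minus strand) for Fasn, chr11:100528001-100528250 (minus) for Acly, chr16:17928220-17928469 (minus) for Slc25a1, and chr5:135089640-135089889 and chr5:135106641-135106890 (plus) for the upstream and downstream starts of Mlxipl.
Fasn: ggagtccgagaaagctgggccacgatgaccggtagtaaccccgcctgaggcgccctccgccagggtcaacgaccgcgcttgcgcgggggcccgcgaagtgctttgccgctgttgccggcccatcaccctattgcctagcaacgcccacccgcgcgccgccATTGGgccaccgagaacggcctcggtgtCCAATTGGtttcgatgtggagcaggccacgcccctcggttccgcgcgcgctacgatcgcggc
Acly: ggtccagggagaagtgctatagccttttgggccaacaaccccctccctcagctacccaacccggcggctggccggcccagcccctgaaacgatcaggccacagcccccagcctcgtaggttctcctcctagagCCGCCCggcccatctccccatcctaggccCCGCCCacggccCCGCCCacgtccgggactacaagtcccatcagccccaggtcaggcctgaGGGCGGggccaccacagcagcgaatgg
Slc25a1: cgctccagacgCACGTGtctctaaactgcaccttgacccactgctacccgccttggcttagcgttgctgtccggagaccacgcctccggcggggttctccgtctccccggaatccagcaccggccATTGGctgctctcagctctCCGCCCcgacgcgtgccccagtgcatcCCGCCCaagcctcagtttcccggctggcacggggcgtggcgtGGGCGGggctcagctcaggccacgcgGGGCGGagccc
Mlxipl upstream start: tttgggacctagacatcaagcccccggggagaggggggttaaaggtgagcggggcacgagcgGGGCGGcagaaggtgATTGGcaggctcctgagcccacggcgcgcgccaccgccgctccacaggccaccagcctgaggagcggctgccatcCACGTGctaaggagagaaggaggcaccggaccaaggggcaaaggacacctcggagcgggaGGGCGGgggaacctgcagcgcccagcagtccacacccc
Mlxipl downstream start: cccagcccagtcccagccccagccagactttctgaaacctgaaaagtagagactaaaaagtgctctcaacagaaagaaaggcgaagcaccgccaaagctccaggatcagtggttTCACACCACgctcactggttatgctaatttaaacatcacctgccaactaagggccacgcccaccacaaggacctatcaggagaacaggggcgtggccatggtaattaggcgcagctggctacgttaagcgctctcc

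The Fasn window held 3 NF-Y box matches and no GC box, and the Acly window 4 GC boxes and no NF-Y box. Of the Fasn matches, 2 overlap on opposite strands within the stretch CCAATTGG. Slc25a1 held an E-box, an NF-Y box and 4 GC boxes. The upstream start of Mlxipl held an E-box, an NF-Y box and 2 GC boxes, and its downstream start held the sterol element alone. Over the 14 start sites listed for the 10 members, the sterol element matched in 1 window, against 1.05% of 32851 windows of that length. An E-box matched in 2 windows, of 2 members, against 6.02%. An NF-Y box lay in 9 of the 14 windows, against 33.8% of all windows, and at some start of 8 members. A GC box lay in 7 of the 14, against 32.7% of all windows, and at some start of 6 members. A match describes letters in the window and not binding, and a member with several starts has more chances of one. The only windows listed for Acaca (chr11:84195188-84195437) and Acacb (chr5:114165268-114165517) lie within the annotated genes. Sequence before the annotated first base of these genes was not searched.

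The 4 libraries held 10127125 to 12730013 reads assigned to genes, and 1 read was worth 0.0844 to 0.0969 CPM. All 10 members were among the 12797 genes that passed the filter of at least 1 CPM in at least 2 libraries. Their read counts per library ran from 998 (Mlxipl) to 226294 (Fasn). White adipocyte markers were abundant, with 12 genes summing to 46630.4 and 43144 CPM in dermal against 47977 and 43937 CPM in inguinal libraries. Of other lipid-making cells, the 10 sebaceous markers summed to 857 and 701 CPM in dermal against 1078 and 827 CPM in inguinal libraries. Most of this was the glutathione transferase gene Mgst1 (dermal 814 and 657 CPM, inguinal 1048 and 799 CPM). Soat1 (dermal 22.9 and 25.6 CPM, inguinal 11.1 and 13.2 CPM), Krt79 (dermal 5.55 and 5.6 CPM, inguinal 3.88 and 4.75 CPM) and Mc5r (dermal 3.64 and 5.22 CPM, inguinal 2.96 and 2.13 CPM) were also measured, while Awat1, Awat2, Scd3 and Far2 reached at most 0.664 CPM in any library. Plin5 overlapped between depots (dermal 8.01 and 6.17 CPM, inguinal 6.84 and 6.69 CPM). Elovl3 was highest in inguinal replicate 1 (dermal 0.819 and 0.474 CPM, inguinal 3.88 and 0.776 CPM). The part of these markers in the results was not tested. The 6 markers of mammary and other simple epithelium summed to at most 0.728 CPM. In such bulk samples, fewer cells of a type and less RNA per cell cannot be told apart. Whether counting used strand is not given in the labels or notes, and 6 members overlap a gene on the opposite strand. The opposite genes found in the table reached at most 22.4 CPM (Rai1, opposite Srebf1).

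Between depots, the mean levels of Thrsp and of the enzymes other than Fasn were higher in inguinal libraries, Fasn was nearly level, and those of both transcription factors were higher in dermal libraries. None of these differences passed limma at a Benjamini-Hochberg adjusted p under 0.05, two-sided (0 of 10 members). Of all tested genes 16.4% passed, 7.56% as higher in dermal and 8.8% as higher in inguinal. At an unadjusted p under 0.05 there were 3 members, Acacb, Srebf1 and Mlxipl, against 32.5% of all genes. On reads recovered from the CPM steps, edgeR called 0 members (16.1% of all genes) and DESeq2 called 2, Acacb and Srebf1 (15.5%). With the replicate number as a block, limma called 8 members (36.9% of all genes), but the labels do not say what a number marks. The median difference was -0.57 over the members and 0.016 over all tested genes. Libraries of the same depot were far apart for most of these genes. The standard error was above 0.22, the 90th percentile among 1888 genes with a mean of at least 100 CPM, in 8 of the 10. Without inguinal replicate 2, 8 members passed (19.2% of all genes), all but Fasn and Mlxipl, and without dermal replicate 1 only Acacb did (7.99%).

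**Figure D1:**
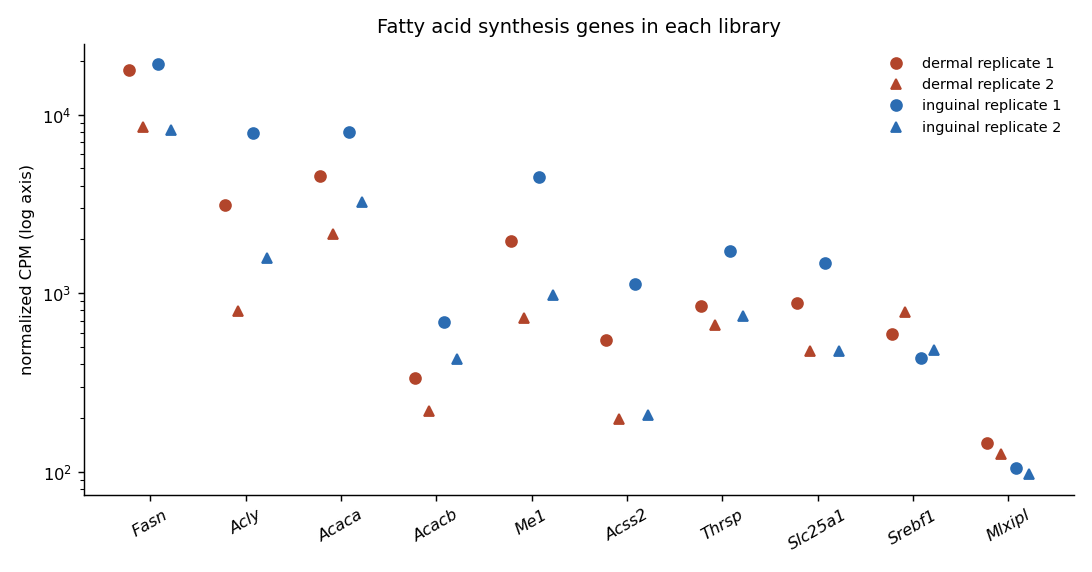
Normalized CPM (log axis) of the 10 genes in each of the 4 libraries, dermal in red and inguinal in blue, with circles for replicate 1 and triangles for replicate 2. Fasn spans 8180.2 to 19109 CPM with both depots interleaved, and only Acacb, Srebf1 and Mlxipl have depots that do not overlap.

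Cytosolic acetyl-CoA supply begins with Slc25a1, the mitochondrial citrate carrier (chr16:17925223-17928219, minus strand). Its dermal values were 886 and 471 CPM and inguinal values 1485 and 476 CPM. Inguinal replicate 1 was the highest and the second libraries were nearly level, so the depots overlapped (difference -0.38, SE 0.54, limma adjusted p = 0.674). For Acly, ATP citrate lyase (chr11:100476353-100528000, minus strand), dermal values were 3117 and 797 CPM and inguinal values 7867 and 1569 CPM. The 9.87-fold range over the 4 libraries was the widest of the members, and dermal replicate 1 lay above inguinal replicate 2 (difference -1.16, SE 0.87, limma adjusted p = 0.407). For Acss2, which activates acetate (chr2:155517948-155585724, plus strand), dermal values were 548 and 197 CPM and inguinal values 1123 and 209 CPM. The first library of each depot was high and the second low, with the depots close in the low pair (difference -0.56, SE 0.80, limma adjusted p = 0.676).

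Malonyl-CoA comes from a pair of carboxylases with different roles. For Acaca, the cytosolic form that feeds synthesis (chr11:84129672-84401651, plus strand), dermal values were 4508 and 2133 CPM and inguinal values 8024 and 3257 CPM, and the depots overlapped (difference -0.72, SE 0.51, limma adjusted p = 0.377). For Acacb, the form at the mitochondrial surface whose product restrains fatty acid oxidation (chr5:114146535-114250761, plus strand), dermal values were 333 and 219 CPM and inguinal values 686 and 427 CPM. Both inguinal values exceeded both dermal values, with a 2.02-fold higher inguinal mean (difference -1.0, SE 0.28, limma adjusted p = 0.0596). DESeq2 called Acacb (adjusted p = 0.00171), whereas edgeR did not (0.0592), nor did limma with quantile normalization (0.0833) or no intensity trend (0.107). With each library left out in turn the Acacb difference ran from -1.34 to -0.66. Acacb was the only member higher in inguinal libraries without overlap, an order seen in 30.1% of all tested genes.

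Fasn, which builds palmitate (chr11:120805846-120824547, minus strand), was the most abundant member. Its dermal values were 17787 and 8561 CPM and inguinal values 19109 and 8180.2 CPM. Each depot had 1 high and 1 low library at similar levels (difference -0.019, SE 0.53, limma adjusted p = 0.985). The sign depended on scaling, with a difference of 0.064 when each library was rescaled to the same total. For Me1, the NADPH-producing malic enzyme (chr9:86581371-86695953, minus strand), dermal values were 1962 and 724 CPM and inguinal values 4489 and 983 CPM. Inguinal replicate 1 was far above the other libraries, and the depots overlapped (difference -0.82, SE 0.75, limma adjusted p = 0.498). For Thrsp (chr7:97412938-97417730, minus strand), dermal values were 848 and 667 CPM and inguinal values 1723 and 742 CPM. Here 3 libraries were close together and inguinal replicate 1 was apart (difference -0.59, SE 0.38, limma adjusted p = 0.333).

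The transcription factor genes lay the other way. For Srebf1 (chr11:60199089-60222581, minus strand), dermal values were 594 and 779.7 CPM and inguinal values 432 and 482 CPM. The dermal mean was 1.50-fold the inguinal mean (difference 0.58, SE 0.17, limma adjusted p = 0.0720). For Mlxipl (chr5:135089890-135138382, plus strand), dermal values were 144 and 126 CPM and inguinal values 105 and 96.8 CPM, a ratio of means of 1.34 (difference 0.41, SE 0.13, limma adjusted p = 0.0838). In both genes each dermal value exceeded each inguinal value, as in 31.6% of all tested genes. Some alternatives called them. Quantile normalization gave limma adjusted p = 0.0348 for Srebf1 and 0.0398 for Mlxipl, and equal library totals gave 0.0488 for Mlxipl. Srebf1 also passed with DESeq2 (adjusted p = 0.0366) and, with limma, without inguinal replicate 2 (0.0451). With a library left out, the limma adjusted p reached 0.432 for Srebf1 and 0.462 for Mlxipl, and the differences stayed above 0 in every alternative run.

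Within a replicate number each side is 1 library, so the values are given without a test. In both numbers 7 members were higher in inguinal (38.5% of all genes), and Srebf1 and Mlxipl were higher in dermal (40.3%). The median difference of the members was -0.93 in replicate 1 and -0.12 in replicate 2, against 0.0061 and 0.016 over all genes. In replicate 1, 5 members (Acly, Acacb, Me1, Acss2 and Thrsp) were past 1 on the log2 scale toward inguinal (6.64% of all genes), and in replicate 2 there were 0 (7.73%).

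Of the members, the citrate lyase and both carboxylases had the highest inguinal to dermal ratios in replicate 2. In replicates 1 and 2 the ratio was 2.52-fold and 1.97-fold for Acly, 1.78-fold and 1.53-fold for Acaca and 2.06-fold and 1.95-fold for Acacb. The ratio was closer to 1 in replicate 2 for Me1 (2.29-fold and 1.36-fold), Thrsp (2.03-fold and 1.11-fold), Acss2 (2.05-fold and 1.06-fold) and Slc25a1 (1.68-fold and 1.01-fold). The 95% exact counting interval of the replicate 2 ratio ran from 0.997 to 1.13 for Acss2 and from 0.969 to 1.05 for Slc25a1, so for these genes the pair of libraries could not be told apart by counting. It ran from 0.947 to 0.965 for Fasn, 1.08 to 1.15 for Thrsp and 1.32 to 1.4 for Me1, and did not include 1 for these. In replicate 1 the Fasn interval ran from 1.07 to 1.08. The intervals of Srebf1 and Mlxipl lay below 1 in both numbers. These intervals cover counting error between 1 library per depot and not the spread within a depot or the choice of scaling. The log2 difference of Acss2 and of Slc25a1 in replicate 2 changed sign with quantile normalization (0.049 and 0.13), and that of Slc25a1 also with equal library totals (0.024). Fasn stood at 1.07-fold and 0.956-fold, and its difference in replicate 1 changed sign with equal library totals (0.026). With quantile normalization the Fasn difference in replicate 2 was 0. The dermal to inguinal ratio was 1.37-fold and 1.62-fold for Srebf1 and 1.37-fold and 1.31-fold for Mlxipl.

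**Figure D2:**
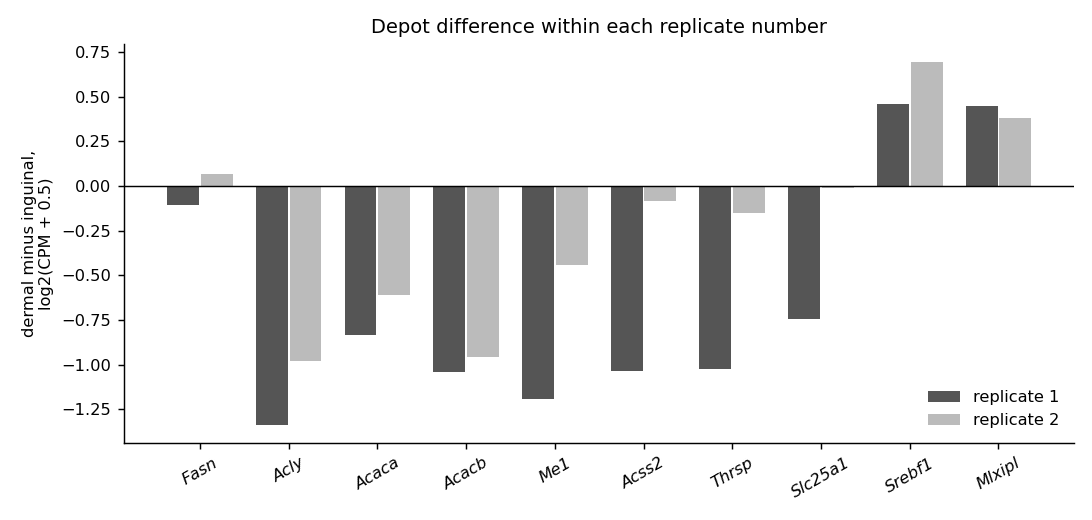
Dermal minus inguinal difference on the log2(CPM + 0.5) scale for each gene, with dark bars for the libraries numbered 1 and light bars for those numbered 2, each bar from 1 library per depot. Bars of Acly, Acaca, Acacb and Me1 point down in both numbers, those of Acss2, Thrsp and Slc25a1 are near 0 in replicate 2, and those of Srebf1 and Mlxipl point up.

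Levels per kb of merged exon set the genes beside each other. The exons of every annotated transcript were merged (10.2 kb for Acss2, 5.63 kb for Srebf1), so the order depends in part on the annotation. Fasn ranked first in every library, with a mean of 1225 CPM per kb. It was followed on average by Acly (632), Me1 (530.0), Thrsp (455), Slc25a1 (383), Acaca (262), Srebf1 (102), Acss2 (51.1), Acacb (43.2) and Mlxipl (21.3). Places below Fasn changed between libraries. Acly took rank 2 in both first libraries and rank 5 in dermal replicate 2, where Thrsp held rank 2.

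Setting each gene's level per kb against that of Fasn within a library removes the scaling between libraries. This ratio of CPM per kb was, for Acaca, 0.163 and 0.160 in dermal and 0.269 and 0.255 in inguinal libraries. The values nearly coincided within a depot although both genes differed more than 2-fold between its libraries. The ratio per kb of Acly to Fasn was 0.363 and 0.193 in dermal and 0.854 and 0.398 in inguinal libraries, again without overlap. That of Acacb was 0.0213 and 0.0291 against 0.0408 and 0.0593. Of the 9 other members, 6 (Acly, Acaca, Acacb, Me1, Thrsp and Slc25a1) had a higher ratio to Fasn in both inguinal libraries, against 5.63% of all tested genes, and 0 had a higher ratio in both dermal libraries, against 5.47%. Dividing by Fasn carries its difference between replicates into every gene that does not follow it, which lowers these shares for all genes, so nothing about the depots is read from the 6. On CPM itself Acacb alone of the 6 did not overlap. The ratios are a description and were not tested. The ratio per kb of Srebf1 to Fasn was higher in the second libraries (0.177 dermal, 0.114 inguinal) than in the first (0.0649 and 0.0440).

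**Figure D3:**
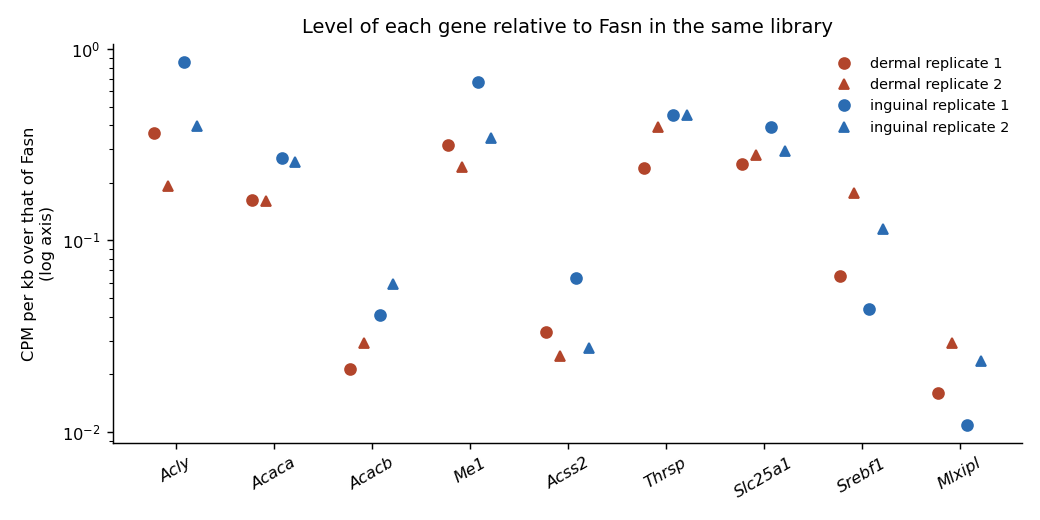
Level per kb of merged exon of 9 genes divided by that of Fasn in the same library (log axis), dermal in red and inguinal in blue, circles for replicate 1 and triangles for replicate 2. The Acaca points form a tight pair per depot, at 0.160 to 0.163 in dermal and 0.255 to 0.269 in inguinal libraries, whereas Srebf1 and Mlxipl points are ordered by replicate number.

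Replicates 1 and 2 of a depot differed by more than the depots did for Slc25a1, Acly, Acss2, Acaca, Fasn and Me1. In dermal libraries 5 members (Acly, Acss2, Acaca, Fasn and Me1) were past 1 on the log2 scale higher in replicate 1, against 0.414% of all tested genes. In inguinal libraries 7 were, Slc25a1 and Thrsp being the others, against 1.13%. Those 5 passed this size in both depots, as did 0.18% of all genes, which is 23 genes. With quantile normalization 3 members did (Acly, Acss2 and Me1). Of the 23, 7 had a mean of at least 100 CPM, a level that 1888 tested genes reached, and 5 of these were members. The others were the fatty acid elongase gene Elovl6 and the desaturase gene Scd2. At a mean of at least 500 CPM, reached by 214 tested genes, Scd2 fell out and 6 remained, with the same 5 members. The ratio of replicate 1 to replicate 2 in dermal and inguinal libraries was 3.91-fold and 5.01-fold for Acly, 2.78-fold and 5.38-fold for Acss2, 2.71-fold and 4.57-fold for Me1, 2.11-fold and 2.46-fold for Acaca and 2.08-fold and 2.34-fold for Fasn.

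All 8 members other than the transcription factors were higher in replicate 1 in both depots, with the larger log2 difference in inguinal libraries, an order seen in 19.5% of all genes. With Mlxipl, 9 of 10 were higher in replicate 1 in both depots (30.3% of all genes), but the inguinal log2 difference of Mlxipl (0.12) changed sign with equal library totals (-0.00094). Srebf1 was lower in replicate 1, with log2 differences of -0.39 in dermal and -0.16 in inguinal libraries. Together the 10 genes took 3.13% and 1.53% of the summed dermal values and 4.19% and 1.67% of the inguinal ones.

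**Figure D4:**
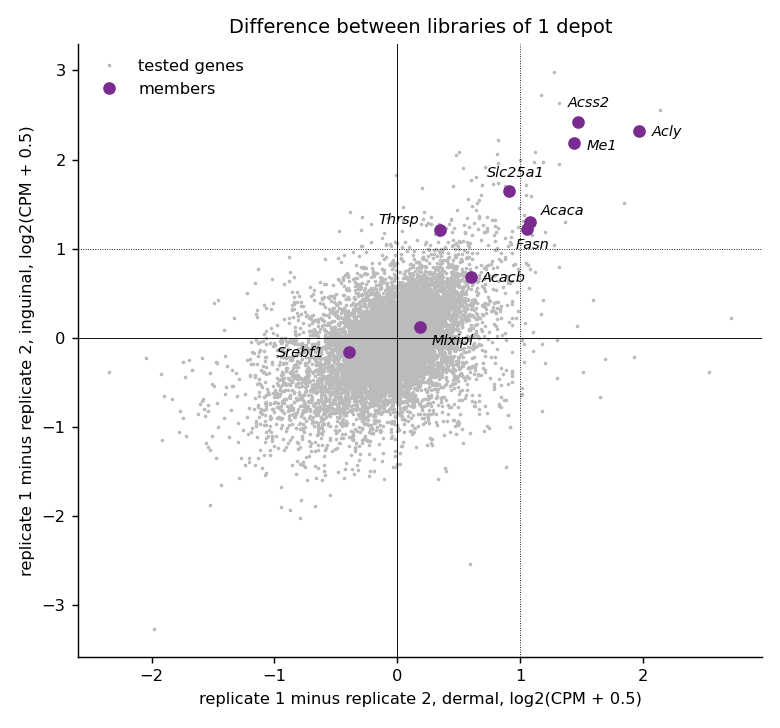
Replicate 1 minus replicate 2 in dermal libraries (horizontal) and in inguinal libraries (vertical), both on the log2(CPM + 0.5) scale, for all 12797 tested genes (grey) and the 10 members (purple), with dotted lines at 1. Fasn, Acly, Acaca, Me1 and Acss2 lie beyond both dotted lines (with quantile normalization Acly, Me1 and Acss2 only), and Srebf1 and Mlxipl lie within the grey cloud.

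Genes that supply citrate and NADPH were read from lists. For these and the lists below, limma passed 16.4% of all tested genes, 7.56% as higher in dermal and 8.8% as higher in inguinal. Of 13 genes for citrate and acetyl-CoA, 0 passed the limma depot test (median difference -0.18). The most abundant were the pyruvate carboxylase gene Pcx (dermal 2459 and 1777 CPM, inguinal 2722 and 1450.1 CPM) and the pyruvate dehydrogenase gene Pdha1 (dermal 821 and 647 CPM, inguinal 1419.7 and 819 CPM). Replicate 1 was higher in both depots in 11 of the 13, against 30.3% of all tested genes. The median log2 differences between replicates were 0.28 in dermal and 0.68 in inguinal libraries. Of 7 measured genes of NADPH supply 0 passed (median -0.0086), and replicate 1 was higher in both depots in 5 (30.3% of all tested genes). Among the 5 was the transketolase gene Tkt (dermal 2938 and 1555 CPM, inguinal 3767 and 1781 CPM). Idh1, the cytosolic isocitrate dehydrogenase, was not among the 5 (dermal 386 and 405 CPM, inguinal 414 and 295 CPM).

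Desaturases and elongases modify the palmitate that Fasn makes, or dietary fatty acids. Of 9 measured, Elovl5, which extends polyunsaturated fatty acids, was higher in inguinal libraries (dermal 226 and 185 CPM, inguinal 419 and 325 CPM, difference -0.85, SE 0.18, limma adjusted p = 0.0241). Leaving out dermal replicate 2 ended that call (adjusted p = 0.135), as did a fit with no intensity trend (0.0576). The other 8 did not pass, and the median of the 9 was -0.61. Replicate 1 was higher in both depots in 5 of the 9 (30.3% of all tested genes). Named after their values were seen, the stearoyl-CoA desaturase gene Scd1 (dermal 34813 and 36331 CPM, inguinal 62455 and 43326 CPM) had level dermal libraries, whereas Scd2 (dermal 546 and 218 CPM, inguinal 854 and 137 CPM) and Elovl6 (dermal 393 and 181 CPM, inguinal 1448 and 369 CPM) had higher values in replicate 1 of both depots.

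Other regulators were also read from lists. Of 14 genes of SREBP processing and lipogenic transcription 0 passed (median difference -0.013). Their median log2 differences between replicates were -0.039 in dermal and -0.11 in inguinal libraries. Replicate 1 was higher in both depots in 2 of the 14 (30.3% of all tested genes). The most abundant were Lpin1, a phosphatidate phosphatase and coregulator (dermal 586 and 489 CPM, inguinal 689 and 524 CPM), and Insig1, which holds SREBP in the endoplasmic reticulum (dermal 332 and 396 CPM, inguinal 606 and 433 CPM). Of 15 measured genes of cholesterol synthesis and uptake, targets of SREBP2, 1 passed. It was Fdft1, the squalene synthase gene, higher in inguinal libraries (dermal 30.8 and 30.3 CPM, inguinal 70.1 and 47.5 CPM, difference -0.91, SE 0.20, limma adjusted p = 0.0290). Leaving out dermal replicate 1 (adjusted p = 0.0891) or dermal replicate 2 (0.0931) ended this call, as did a fit with no intensity trend (0.0617). Replicate 1 was higher in both depots in 12 of the 15 (the same share of all genes applies). The median log2 differences between replicates were 0.43 in dermal and 1.24 in inguinal libraries.

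Of 6 measured ChREBP targets outside fatty acid synthesis 0 passed (median 0.12). Replicate 1 was higher in both depots in 4 of these 6 (30.3% of all tested genes). The most abundant were the glycerol-3-phosphate dehydrogenase gene Gpd1 (dermal 3139 and 2754 CPM, inguinal 2876 and 2085 CPM) and Txnip, which restrains glucose uptake (dermal 1705 and 1558 CPM, inguinal 1884 and 1412 CPM). Of 6 LXR targets, Pltp, a phospholipid transfer protein gene, was higher in dermal libraries (dermal 90.7 and 89.7 CPM, inguinal 34.1 and 51.0 CPM, difference 1.10, SE 0.20, limma adjusted p = 0.0168), and 5 did not pass. Replicate 1 was higher in both depots in 1 of the 6 LXR targets. Of 10 genes of malonyl-CoA turnover and the AMP-activated kinase, which inhibits the carboxylases, 0 passed (median 0.055). Replicate 1 was higher in both depots in 4 of these 10. The kinase subunit genes Prkaa1 and Prkag2 ranged over the libraries from 105 to 124 CPM and from 36.9 to 46.5 CPM.

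**Figure D5:**
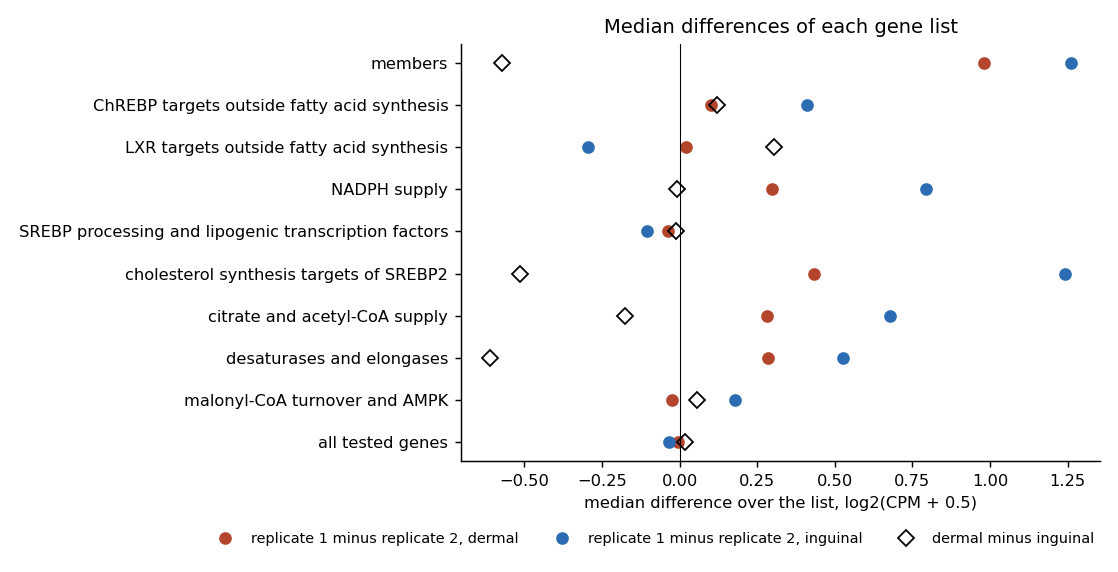
Median difference of the members, of 8 lists of pathway genes and of all tested genes on the log2(CPM + 0.5) scale. Red and blue circles are replicate 1 minus replicate 2 in dermal and inguinal libraries, and open diamonds are dermal minus inguinal. The members have the highest replicate medians (0.98 and 1.26), followed by the cholesterol list (0.43 and 1.24).

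Other transcripts differed along with the replicate number or the depot, and their part in the results above was not tested. In both depots replicate 2 was higher for 9 of 10 fibroblast markers, against 35.3% of all tested genes. Their sum was 5837 and 13444 CPM in dermal against 3717 and 6458 CPM in inguinal libraries. The same order held for 10 of 15 clock genes and for 8 of 10 immediate early genes, which respond to handling (the same share of all genes applies). Of the clock genes Cry1 (dermal 2.82 and 4.65 CPM, inguinal 9.29 and 10.9 CPM), Nr1d1 (dermal 120.2 and 115 CPM, inguinal 268 and 206 CPM) and Nr1d2 (dermal 104 and 94.9 CPM, inguinal 171 and 178 CPM) passed limma as higher in inguinal. Leaving out dermal replicate 1 ended the call of Cry1 (adjusted p = 0.0931), and leaving out dermal replicate 2 that of Nr1d2 (0.0775). Of the immediate early genes Fos, Fosb, Egr1, Egr2, Egr3, Atf3 and Nr4a1 passed as higher in inguinal, Egr1 not in a fit with no intensity trend (adjusted p = 0.0537). Of 7 measured fasting-induced genes, Pdk4 (dermal 44.9 and 44.1 CPM, inguinal 279 and 215 CPM), Angptl4 (dermal 519 and 424 CPM, inguinal 953 and 780.0 CPM) and Ppargc1a (dermal 14.6 and 10.7 CPM, inguinal 29.6 and 31.9 CPM) passed as higher in inguinal and Cpt1a (dermal 71.5 and 109.6 CPM, inguinal 39.0 and 53.6 CPM) as higher in dermal. Without dermal replicate 2 the calls of Angptl4 (adjusted p = 0.142) and Cpt1a (0.197) were lost. Cpt1a also missed the threshold with no filter (0.0713), a filter at 5 CPM (0.0531), no intensity trend (0.0888) or equal library totals (0.0514).

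Markers of other cell types differed mainly between depots, and their part was likewise not tested. Beside the counts below, 7.56% of all tested genes passed as higher in dermal and 8.8% as higher in inguinal. All 9 measured macrophage markers (Csf1r, Cd68, Mrc1, C1qa, C1qb, C1qc, Cd163, Lyz2 and Fcgr1) passed as higher in dermal, with sums of 1627 and 1539.6 against 539.9 and 499 CPM. All 10 endothelial markers (Pecam1, Cdh5, Kdr, Tek, Tie1, Flt1, Emcn, Egfl7, Vwf and Esam) passed as higher in inguinal, with sums of 439 and 476 against 1535 and 2312 CPM. The 7 red blood cell rows passed as higher in inguinal (123 and 70.7 against 291 and 552 CPM). They were Hba-a1, Hba-a2, Hbb-bs, Hbb-bt, Hbb-b1, Hbb-b2 and Alas2, of which paralogous globin rows hold identical values. Of 8 tested brown and beige adipocyte genes Ucp1, Cidea, Ppargc1a, Cox7a1, Cox8b, Prdm16 and Ebf2 passed as higher in inguinal, and all 9 genes of that list in the table summed to 71.2 and 68.2 against 247 and 298 CPM. Of 7 tested keratinocyte markers Krt5, Krt15, Dsp, Perp and Trp63 passed as higher in dermal, and the 9 in the table summed to 87.7 and 55.7 against 26.5 and 18.8 CPM. Of 12 white adipocyte genes Lep, Plin1 and Cebpa passed as higher in dermal, the last 2 not without dermal replicate 2 (limma adjusted p = 0.0850 and 0.0984). Thy1 (higher in dermal) and Pdgfrb (higher in inguinal) passed among 10 fibroblast markers. Soat1 passed as higher in dermal among 5 tested sebaceous markers, and Ckm among 9 tested muscle markers. Ckm did not pass with edgeR (adjusted p = 0.0562) or DESeq2 (0.163), nor with limma at a pseudocount of 0.1 (0.0522), with no filter (0.0906), with quantile normalization (0.0644) or without any 1 of the libraries. Among the other markers, limma no longer called Cox7a1, Cox8b, Egfl7, Fcgr1, Pdgfrb, Perp, Prdm16, Soat1 and Trp63 (adjusted p from 0.0534 to 0.198) when dermal replicate 1 was left out, and Cox8b, Hbb-b2, Hbb-bt, Pdgfrb, Prdm16 and Soat1 (adjusted p from 0.0504 to 0.104) when dermal replicate 2 was. With no filter limma also lost Fcgr1 (0.0645), Pdgfrb (0.0525), Hbb-bt and Hbb-b2 (0.0594 each), and with no intensity trend Egfl7 (0.0501), Pdgfrb (0.0683), Hbb-bt and Hbb-b2 (0.0617 each). Pdgfrb was lost with equal library totals as well (0.0689).

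The genes outside these lists whose centred log2 values over the 4 libraries lay nearest the median profile of the members, among 8560 genes with a mean of at least 10 CPM, were Mir3076, Clstn3, Psph, Slc25a35 and Parm1. Their distances ran from 0.24 to 0.32 on the log2 scale. Mir3076 (dermal 19.6 and 9.30 CPM, inguinal 26.1 and 9.69 CPM) overlaps Tkt on the same strand, so its reads may be those of Tkt. The values of Clstn3, a calsyntenin gene, were dermal 21.4 and 11.0 CPM, inguinal 30.4 and 14.3 CPM. Psph completes serine synthesis (dermal 16.8 and 10.2 CPM, inguinal 29.0 and 12.4 CPM). For Slc25a35, a mitochondrial carrier family gene, dermal values were 33.9 and 19.2 CPM and inguinal values 47.1 and 20.5 CPM, and for Parm1 dermal values were 69.8 and 44.3 CPM and inguinal values 116 and 40.1 CPM.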

How the data were processed

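RNA of floated mature adipocytes was sequenced, 1 library per sample and 2 per depot, after digestion with collagenase and dispase and with a kit that keeps strand, per the labels. The submitters' processing notes list edgeR, featureCounts from Subread 1.4.6, Picard 1.127, TopHat2 2.0.12, FastQC, bcl2fastq and the mm10 build, with no roles. The deposited signal is CPM per gene with a further factor applied by the authors, as the columns total 960745 to 1074951. Every value (100%) was a whole multiple of 1 step within 0.001, so reads were recovered. On them edgeR 4.0.16 called 2056 genes and DESeq2 1.42.0 called 1985, against 2094 with limma 3.58.1 (R 4.3.3), which was fitted over all genes past the filter with an intensity trend. Changes of low genes are understated on the log2(CPM + 0.5) scale. The fit was tested on simulated data with independent libraries and the same modest spread for every gene. That test does not show how the fit behaves for genes with a wider spread, as in most members. Groups came from the titles. Members and lists were chosen with earlier results of these data known. Named are all members, of each list the genes that passed or else the 2 most abundant, and the 5 genes nearest the members' profile, other names being marked as chosen later. Promoter sequences are from RefSeq (all 10 members matched), gene positions, exon lengths and strands from GENCODE M21 on GRCm38. Intervals cover counting error only. Alternatives were other pseudocounts, filters, scalings, tools, a replicate block and leaving out each library.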

Additional observations from a re-analysis of the deposited data

How the results depend on the processing

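Leaving out each library in turn gave 1023 to 2636 called genes, 0 to 8 called members and a median member difference of -1.27 to 0.36. Differences ran from -0.63 to 0.59 for Fasn, -2.32 to 0.0061 for Acly, -1.91 to 0.28 for Me1, -1.77 to 0.65 for Acss2, -1.20 to 0.020 for Thrsp and -1.20 to 0.44 for Slc25a1, and only those of Acaca, Acacb, Srebf1 and Mlxipl kept their sign in all 4 of these fits. The lone library of a depot is assumed there to vary like the other depot. Quantile normalization called 2 members, equal library totals 1 and DESeq2 2, and equal totals turned the sign of Fasn (0.064). Pseudocounts, filters, the intensity trend and edgeR changed no member's call. With quantile normalization the median log2 differences between replicates were 0.78 in dermal and 1.06 in inguinal libraries, and 3 members were past 1 in both depots. Of 61 called genes of other lists, 40 passed in every alternative run that tested them and 0 changed sign. For the list genes, and in part for single-library differences, alternatives were chosen after seeing the data. The cause of these changes was not tested.

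The labels do not say what a replicate number marks. Across genes, deviations of same-numbered libraries from their depot means correlated at 0.46, a hint from the data and not from the design. With the number as a replicate block, 4726 genes passed (36.9%) and 8 members did. They were Acly, Acaca, Acacb, Me1, Acss2 and Thrsp, higher in inguinal, and Srebf1 and Mlxipl, higher in dermal.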

Other observations

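Of the 23 genes past 1 on the log2 scale higher in replicate 1 in both depots, 4 belonged to the lists of neighbouring steps. Beside Scd2 and Elovl6 these were the squalene epoxidase gene Sqle (dermal 23.9 and 11.0 CPM, inguinal 45.4 and 14.7 CPM) and the farnesyl diphosphate synthase gene Fdps (dermal 53.7 and 23.2 CPM, inguinal 84.6 and 21.2 CPM). The 14 genes of no list included Slc2a5, which encodes a fructose transporter (dermal 11.7 and 2.28 CPM, inguinal 36.6 and 5.82 CPM), and Prune2 (dermal 34.8 and 15.2 CPM, inguinal 218 and 32.6 CPM). They are named here with their values known, and the differences are between single libraries, without a test.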
